A study of Mus musculus with 12 samples.

Results

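Levels of 10 genes that mark interstitial progenitors and preadipocytes of fat were described across 4 denervated adipose depots of mice on a high-fat diet. The 10 genes were Pi16, Dpp4, Cd55, Ly6a, Cd34, Dcn, Pdgfra, Icam1, F3 and Clec11a. They were chosen by name as markers of stromal cell states of adipose tissue and found by their symbols among the 47729 genes of each table. RNA abundance was measured by sequencing of ribosomal RNA-depleted total RNA in 12 libraries, with 3 from each depot. The depots were interscapular brown fat (BAT), inguinal white fat (IWAT), retroperitoneal white fat (RWAT) and epididymal white fat (EWAT). Every animal was a wild type C57BL/6J male given a high-fat rodent diet, and the design text gives an age range of 6 to 10 weeks. Surgical denervation of the fat was recorded for all 12 libraries, so each comparison was between depots of denervated fat. What denervation did could not be tested without innervated fat. The labels do not say whether the replicates of a depot came from separate animals or pools, so the p-values measure the spread between these libraries, which may be technical in part.

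Adipose tissue holds, beside its fat-filled adipocytes, a stroma of mesenchymal cells from which new adipocytes form. In mouse subcutaneous fat, cells carrying DPP4 and PI16 lie in the reticular interstitium around the lobules and give rise to ICAM1-bearing preadipocytes, which are committed to the adipocyte fate. Cells carrying tissue factor (CD142, the product of F3) and CLEC11A form a further stromal state, for which both adipogenic and anti-adipogenic behaviour have been described. Most cells of these states share the platelet-derived growth factor receptor alpha, CD34, SCA-1 (the product of Ly6a) and decorin.

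Levels compared between libraries are CPM, which are read counts scaled to the size of the library with TMM factors, and log2 fold changes are given with their SE. Where a depot is compared with the mean of several depots, that mean is taken over their log2 levels. The fold is then against their geometric mean, and can differ from a ratio of mean CPM. All 10 genes passed the filter on low counts, which left 18942 genes, and a gene was called when its adjusted p over these genes was below 0.05. Total counts per library ranged from 12933516 in RWAT 3 to 21106554 in EWAT 3. The libraries differed within depots in markers of the tissue itself. Ucp1, the uncoupling protein that defines thermogenic brown adipocytes, had 1489 CPM in BAT 1, but 0.253 CPM in BAT 2 and 1.70 CPM in BAT 3, which lay within the 0.0571 to 8.66 CPM of the white depots. The summed level of 8 brown adipocyte markers was likewise 2119.7 CPM in BAT 1 and 27.4 and 32.4 CPM in BAT 2 and BAT 3, a sum dominated by Ucp1 in BAT 1. The highest BAT values of Cidea, Cpt1b and Dio2 of that list, at 309, 219 and 50.9 CPM, exceeded these sums of BAT 2 and BAT 3. They were therefore in BAT 1 as well. The lowest BAT values of Cidea, Cpt1b, Dio2, Kng2 and Elovl3 were 0.558, 0.963, 0.767, 0.101 and 0.219 CPM. Each lay below the highest level of the same gene in white fat. From the list, only Zic1 and Lhx8 set all 3 BAT libraries apart. Zic1, a transcription factor of the brown fat lineage, had 7.35 to 16.02 CPM in BAT, against at most 0.196 CPM in IWAT, 0.910 CPM in RWAT and 0.343 CPM in EWAT (BAT over the mean of the white depots, adjusted p = 0.00126). Lhx8, a further such factor, had 7.96 to 10.6 CPM in BAT, against at most 3.92 CPM in IWAT, 2.46 CPM in RWAT and 0 CPM in EWAT. Adipoq, the adipocyte hormone adiponectin, was lowest in EWAT 1, with 34.8 CPM against 301 and 1007 CPM in EWAT 3 and EWAT 2. The summed level of 10 skeletal muscle markers reached 617 CPM in RWAT 1 and 3252 CPM in RWAT 3, against 13.8 CPM in RWAT 2.

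Most calls among the 10 genes came from 7 that were higher in IWAT than in EWAT, whereas Icam1, F3 and Clec11a were not called in any comparison. In IWAT over the mean of RWAT and EWAT, 6 of the 10 genes were higher and 0 lower, with 11.1 percent of all tested genes called in either direction, 6.46 percent called higher and 4.64 percent called lower. The 6 were Pi16, Dpp4, Ly6a, Cd34, Dcn and Pdgfra, and the median log2 fold change of the 10 was 1.25, against 0.02 over all tested genes. In IWAT over EWAT alone, the same 6 and Cd55 were higher and 0 were lower, where 9.03 percent of all genes were called in either direction, 4.43 percent higher and 4.6 percent lower. IWAT libraries were all above those of EWAT for these 7, against 17.3 percent of all genes. The median of the 10 in IWAT over EWAT was 1.92, against 0.02 over all tested genes. In whole tissue, fewer cells of a type and less RNA of a gene per cell cannot be told apart.

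The calls, more than the size of the differences, depended on IWAT 1 and IWAT 2. Without IWAT 1 or without IWAT 2, 0 of the 10 genes were called in either comparison, and the calls over all genes fell to 0 and 2 in IWAT over the mean of RWAT and EWAT, and to 45 and 16 in IWAT over EWAT. Counts for the 10 genes in IWAT over the mean of RWAT and EWAT were 3 without RWAT 1, 2 without RWAT 2 and 2 without EWAT 3. The calls over all genes fell there too, to 3.55, 1.24 and 2.27 percent, against 11.1 percent with all libraries. In IWAT over EWAT the counts were 3 without EWAT 1 and 1 without EWAT 3. The shares of all genes were 2.22 and 0.619 percent, against 9.03 percent with all libraries. The 6 genes called in IWAT over the mean of RWAT and EWAT kept a positive log2 fold change with every library left out in turn. Without IWAT 1 the values were 3.98 for Pi16 and 2.56 for Dpp4, against 3.96 and 2.55 with all libraries, and the adjusted p was 0.0714 for both. Without IWAT 2 they were 3.42 for Pi16 and 2.04 for Dpp4, with adjusted p-values of 0.0711 and 0.0751.

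Markers of other cell types moved with the same comparison. Of 10 adipocyte markers, 5 were higher in IWAT than in the mean of RWAT and EWAT, and their summed level was 10694 to 21279 CPM in IWAT, 1282 to 4999 CPM in RWAT and 356 to 4438 CPM in EWAT. Of 12 macrophage markers, 7 were lower in IWAT, with summed levels of 2734 to 3601 CPM in IWAT, 5558 to 7588 CPM in RWAT and 9186 to 10447 CPM in EWAT. Of 12 mesothelial markers, 6 were lower in IWAT, with sums of 12.6 to 19.6 CPM in IWAT, 10.1 to 104 CPM in RWAT and 71.7 to 195 CPM in EWAT. Of 8 Schwann cell markers, 4 were higher in IWAT, with sums of 70.9 to 106 CPM in IWAT, 39.2 to 67.2 CPM in RWAT and 39.0 to 55.2 CPM in EWAT. No marker of these 4 lists was at 0 in every library. With the mean adipocyte marker level as a covariate, 0 of the 10 genes and 0 of all genes were called in IWAT over the mean of RWAT and EWAT, while the log2 fold change of Pi16 was 2.83 and that of Dpp4 was 1.90. The part of macrophage, mesothelial and Schwann cell content in these differences was not tested.

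**Figure D1:**
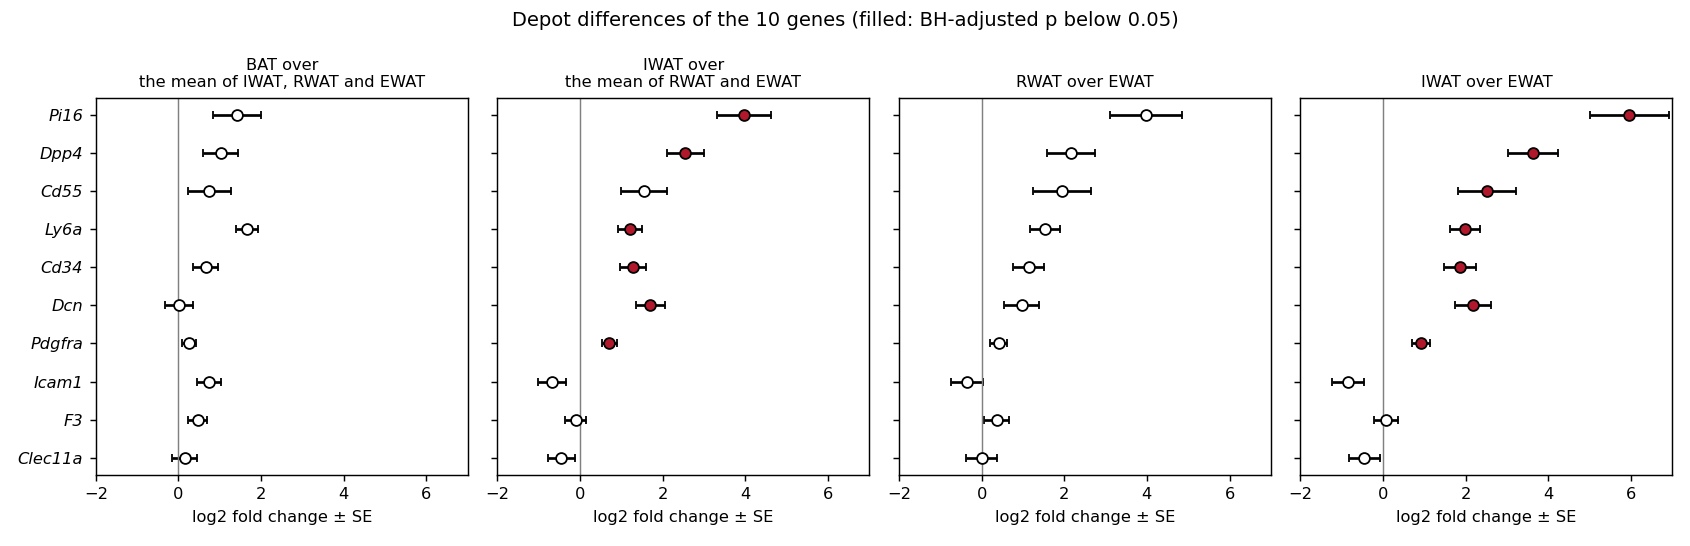
Log2 fold changes of the 10 genes with their SE in 4 depot comparisons (x axis, log2 scale; 1 gene per row), where filled points have an adjusted p below 0.05. In IWAT over EWAT the 7 filled genes run from 0.92 for Pdgfra to 5.96 for Pi16, and in RWAT over EWAT 0 genes are filled.

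Of the 3 genes of the interstitial progenitor state, Pi16 differed the most between depots. Pi16 encodes peptidase inhibitor 16, a secreted cysteine-rich protein that marks progenitor-like fibroblasts of the adventitia in many mouse organs. It had 99.4, 55.9 and 291 CPM in BAT 1 to 3 and 341, 567 and 135 CPM in IWAT 1 to 3. It had 146, 19.2 and 100.3 CPM in RWAT 1 to 3 and 4.48, 8.91 and 3.47 CPM in EWAT 1 to 3. The 3 EWAT libraries lay below all 9 others, whereas BAT, IWAT and RWAT overlapped, and RWAT 2 was the lowest of those 9. Pi16 was 15.6-fold higher in IWAT than in the geometric mean of RWAT and EWAT (log2 fold change 3.96 ± 0.66, adjusted p = 0.0163). Its mean CPM were 348 in IWAT, 88.6 in RWAT and 5.62 in EWAT, so the low EWAT values weigh heavily in this fold. Against EWAT alone it was 62.1-fold higher in IWAT (5.96 ± 0.95 on the log2 scale, adjusted p = 0.0142). The EWAT values rested on 71.0 to 156 expected counts per library.

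The RefSeq promoter of Pi16 on GRCm38.p6, chr17:29318632-29318931 on the plus strand, is shown because this gene had the widest range of levels of the set. It runs from 250 bases before to 50 bases after the RefSeq start site, and capitals mark a CCAAT box. The window lies inside the gene as annotated in GENCODE M21, which starts upstream of it, at 29317680.
Pi16: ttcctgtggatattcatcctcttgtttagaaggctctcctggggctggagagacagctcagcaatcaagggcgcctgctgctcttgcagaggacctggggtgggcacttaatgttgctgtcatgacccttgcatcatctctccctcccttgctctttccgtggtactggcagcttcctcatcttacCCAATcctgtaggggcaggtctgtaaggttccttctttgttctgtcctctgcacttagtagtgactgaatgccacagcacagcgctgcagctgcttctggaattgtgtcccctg

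Dpp4 encodes dipeptidyl peptidase 4 (CD26), a membrane protease that trims incretins and chemokines and is the surface marker by which these progenitors are sorted. It had 47.4, 63.8 and 78.3 CPM in BAT 1 to 3 and 99.96, 161 and 41.6 CPM in IWAT 1 to 3. It had 47.8, 14.4 and 47.1 CPM in RWAT 1 to 3 and 3.999, 8.91 and 11.6 CPM in EWAT 1 to 3. As for Pi16, all EWAT libraries were below the 9 others, and the other 3 depots overlapped, with IWAT 2 the highest and RWAT 2 the lowest of the 9. Dpp4 was 5.86-fold higher in IWAT than in the mean of RWAT and EWAT (2.55 ± 0.46 on the log2 scale, adjusted p = 0.0176) and 12.4-fold higher in IWAT than in EWAT (adjusted p = 0.0148).

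Cd55 encodes decay-accelerating factor, which protects cells from complement and is used with DPP4 to isolate the progenitors. It had 37.2, 75.8 and 131 CPM in BAT 1 to 3 and 98.5, 149 and 49.0 CPM in IWAT 1 to 3. It had 62.6, 20.5 and 117 CPM in RWAT 1 to 3 and 9.66, 30.9 and 11.3 CPM in EWAT 1 to 3. IWAT and BAT lay above EWAT without overlap, but RWAT 2 fell inside the range of EWAT. Cd55 was higher in IWAT than in EWAT, by 2.51 ± 0.71 on the log2 scale (adjusted p = 0.0494), and its value of 1.54 ± 0.56 in IWAT over the mean of RWAT and EWAT did not pass the test (adjusted p = 0.0902).

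The Dpp4 promoter (RefSeq, GRCm38.p6, chr2:62412182-62412481, minus strand, read 5′ to 3′ toward the gene) is shown because, of the 8 promoters matched, it was the only window that held the core of the EBF motif and the TEAD motif together. Capitals mark, in order, a TATA box motif and the TEAD and EBF motifs, which share bases.
Dpp4: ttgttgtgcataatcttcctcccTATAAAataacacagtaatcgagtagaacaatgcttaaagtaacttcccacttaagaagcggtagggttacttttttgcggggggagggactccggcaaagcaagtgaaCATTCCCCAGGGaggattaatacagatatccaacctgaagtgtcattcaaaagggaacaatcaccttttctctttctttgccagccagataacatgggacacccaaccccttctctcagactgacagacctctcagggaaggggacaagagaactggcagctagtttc

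**Figure D2:**
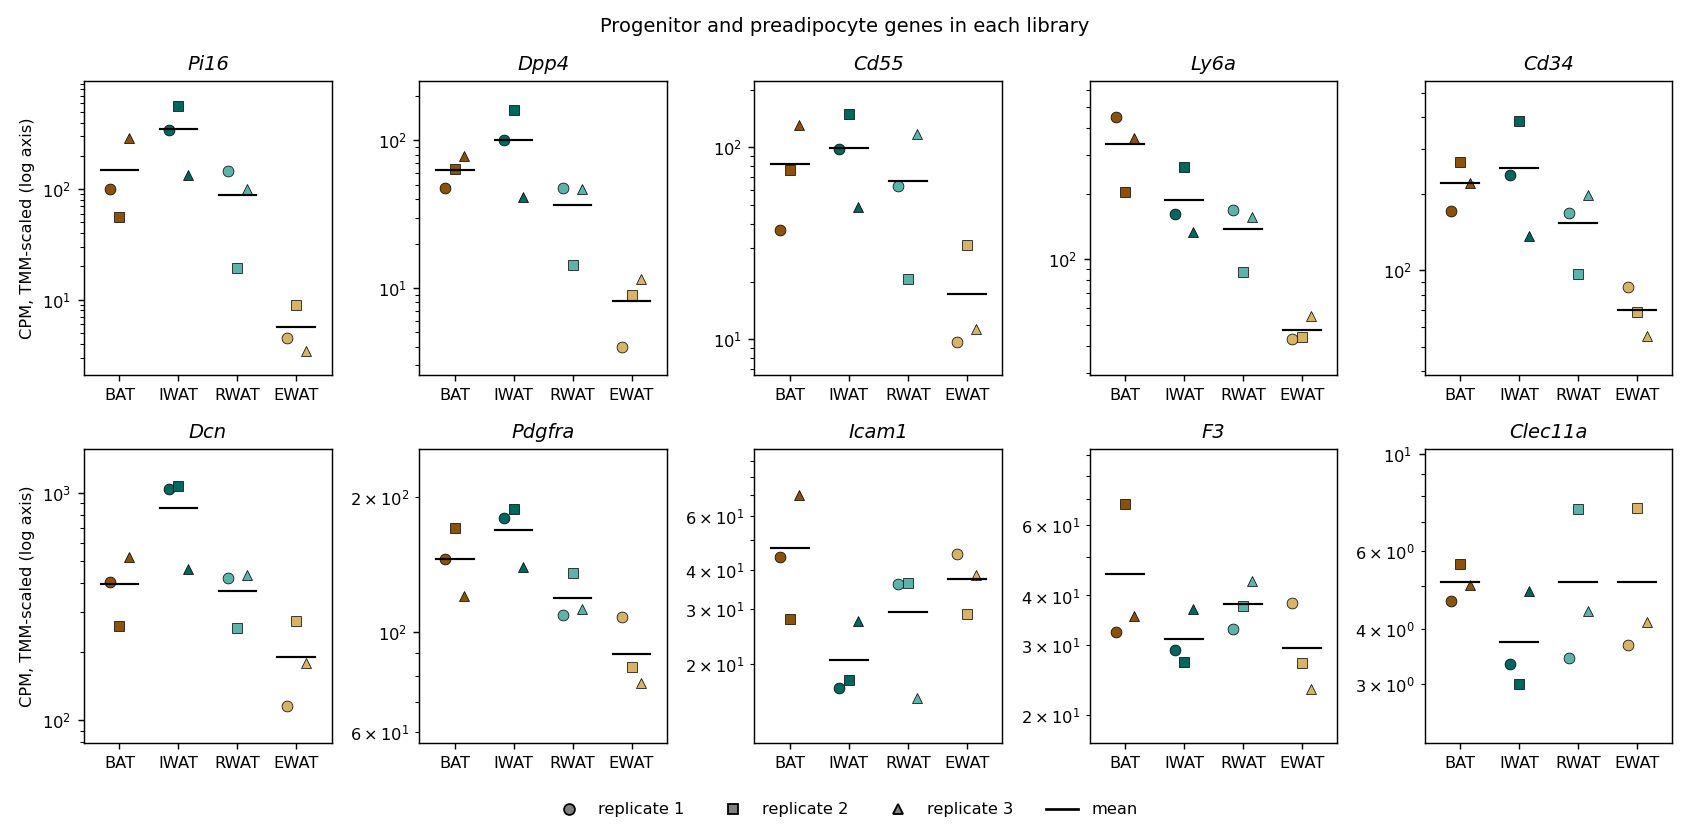
CPM (TMM-scaled, log axis) of each of the 10 genes in every library, by depot; symbols give the replicate number and bars the mean of 3 libraries. For Pi16, Dpp4, Ly6a, Cd34 and Pdgfra the 3 EWAT libraries lie below the 9 libraries of the other depots.

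The 4 genes shared by most adipose stromal cells had smaller differences than Pi16, in the same direction, in IWAT over EWAT and over the mean of RWAT and EWAT. With BAT this did not hold for Ly6a, which had 0.85 ± 0.35 in BAT over IWAT where Pi16 had -1.23 ± 0.78 (log2 scale, neither called). Ly6a encodes SCA-1, a GPI-anchored protein long used to sort mouse stem and stromal cells. It had 449, 203 and 359.6 CPM in BAT 1 to 3 and 161, 265 and 134 CPM in IWAT 1 to 3. It had 167, 87.2 and 157 CPM in RWAT 1 to 3 and 42.9, 44.0 and 55.2 CPM in EWAT 1 to 3. The BAT libraries were all above those of RWAT and the EWAT libraries below all others, while BAT and IWAT overlapped. Ly6a was 7.12-fold higher in BAT than in EWAT (2.83 ± 0.38 on the log2 scale, adjusted p = 0.0240). It was 2.32-fold higher in IWAT than in the mean of RWAT and EWAT (adjusted p = 0.0334). Ly6a belongs to a family of closely similar genes, among them Ly6c1 and Ly6c2, between which reads can be shared; RSEM's posterior SD of its count was at most 0.0787 percent of the count.

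Cd34 encodes a sialomucin carried by adipose stromal cells and by endothelium. It had 171, 267 and 221 CPM in BAT 1 to 3 and 237, 388 and 136 CPM in IWAT 1 to 3. It had 168, 97.0 and 197 CPM in RWAT 1 to 3 and 85.7, 68.6 and 55.2 CPM in EWAT 1 to 3. Every EWAT library was below the 9 others, and IWAT 2 stood highest. Cd34 was 2.44-fold higher in IWAT than in the mean of RWAT and EWAT (1.29 ± 0.31 on the log2 scale, adjusted p = 0.0330). Of 12 endothelial markers 11 had positive log2 fold changes in this comparison and 1 a negative value, with a median of 0.18. The 2 called higher in IWAT were Tek, at 1.78 ± 0.21 (adjusted p = 0.00875), and Cldn5, at 1.35 ± 0.39 (adjusted p = 0.0497). Pecam1, the platelet and endothelial adhesion molecule, averaged 127 ± 62.3 CPM in IWAT, 109 ± 29.5 CPM in RWAT and 125 ± 88.4 CPM in EWAT (SD, n = 3 each). The part of endothelium in the Cd34 values was not tested.

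Dcn encodes decorin, a small proteoglycan that binds collagen fibrils. It had 407, 259 and 521 CPM in BAT 1 to 3 and 1045, 1074 and 463 CPM in IWAT 1 to 3. It had 423, 254 and 434 CPM in RWAT 1 to 3 and 115, 274 and 179 CPM in EWAT 1 to 3. The IWAT libraries were above all 6 libraries of RWAT and EWAT, though IWAT 3 exceeded RWAT 3 by little and lay below BAT 3. Dcn was 3.25-fold higher in IWAT than in the mean of RWAT and EWAT (1.70 ± 0.35 on the log2 scale, adjusted p = 0.0230).

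Pdgfra encodes the receptor that defines the fibroblast and adipogenic stroma as a whole. It had 146, 171 and 120.2 CPM in BAT 1 to 3 and 179, 188 and 139.9 CPM in IWAT 1 to 3. It had 109, 135 and 112 CPM in RWAT 1 to 3 and 108, 83.6 and 77.0 CPM in EWAT 1 to 3. The EWAT libraries were again below all others and the IWAT libraries above all of RWAT and EWAT. Its difference was the smallest of the called genes, at 1.64-fold higher in IWAT than in the mean of RWAT and EWAT (0.71 ± 0.17 on the log2 scale, adjusted p = 0.0336). Libraries of IWAT that were all above those of RWAT and EWAT were seen for Dcn and Pdgfra, 2 of the 10 genes, and for 11.2 percent of all genes.

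The markers of the more committed and CD142+ states did not share this order of depots. Icam1 encodes an adhesion molecule for leukocyte integrins; beside preadipocytes, endothelium and macrophages carry it, and inflammatory cytokines induce it. It had 44.1, 27.98 and 70.1 CPM in BAT 1 to 3 and 16.8, 17.8 and 27.5 CPM in IWAT 1 to 3. It had 36.1, 36.5 and 15.6 CPM in RWAT 1 to 3 and 45.3, 28.9 and 38.5 CPM in EWAT 1 to 3. The 3 IWAT libraries were below all BAT and all EWAT libraries, and RWAT 3 was the lowest of the 12. The log2 fold change was -0.86 ± 0.39 in IWAT over EWAT, which did not pass the test (adjusted p = 0.165), and 1.19 ± 0.39 in BAT over IWAT (adjusted p = 0.343). IWAT libraries all below EWAT were seen for 1 of the 10 genes and for 15.1 percent of all genes. Macrophage markers, whose sums in the white depots are given above, were also low in IWAT and high in EWAT. In BAT, where the mean of Icam1 was highest at 47.4 CPM, their sums were 4394 to 5507 CPM, below all RWAT and EWAT libraries. RWAT 3, the lowest in Icam1, had a sum of 5558 CPM. The part of macrophages in the Icam1 values was not tested.

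The Icam1 promoter (RefSeq, GRCm38.p6, chr9:21015690-21015989, plus strand) is shown for contrast with Pi16 and Dpp4. Capitals mark a GC box, a TATA box motif and a further GC box.
Icam1: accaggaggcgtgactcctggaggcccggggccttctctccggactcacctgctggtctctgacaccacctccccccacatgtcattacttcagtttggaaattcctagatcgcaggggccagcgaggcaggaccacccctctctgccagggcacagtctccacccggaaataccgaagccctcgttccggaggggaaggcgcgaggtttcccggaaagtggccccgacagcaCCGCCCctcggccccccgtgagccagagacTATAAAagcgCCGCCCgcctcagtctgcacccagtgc

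F3 encodes tissue factor, the cell-surface trigger of blood coagulation. It had 32.3, 68.0 and 35.4 CPM in BAT 1 to 3 and 29.2, 27.3 and 37.0 CPM in IWAT 1 to 3. It had 32.9, 37.6 and 43.5 CPM in RWAT 1 to 3 and 38.3, 27.1 and 23.3 CPM in EWAT 1 to 3. All 4 depots overlapped, and BAT 2 was the highest of the 12 libraries. The log2 fold change in IWAT over the mean of RWAT and EWAT was -0.11 ± 0.25 (adjusted p = 0.823).

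Clec11a encodes a secreted C-type lectin growth factor first studied in bone and bone marrow. It had 4.63, 5.63 and 5.04 CPM in BAT 1 to 3 and 3.33, 2.99 and 4.88 CPM in IWAT 1 to 3. It had 3.43, 7.50 and 4.40 CPM in RWAT 1 to 3 and 3.67, 7.54 and 4.15 CPM in EWAT 1 to 3. The depots overlapped, and the gene was measured from 51.0 to 165 expected counts per library and had the lowest single count of the set. Its log2 fold change in IWAT over the mean of RWAT and EWAT was -0.45 ± 0.33 (adjusted p = 0.388).

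Set against Pdgfra in the same library, Pi16 remained low in EWAT. Pi16 stood at 0.683, 0.327 and 2.42 CPM per CPM of Pdgfra in BAT 1 to 3, 1.91, 3.02 and 0.968 in IWAT 1 to 3, 1.34, 0.142 and 0.893 in RWAT 1 to 3 and 0.0415, 0.107 and 0.0451 in EWAT 1 to 3. EWAT was thus below every other library also by this ratio. Dpp4 per Pdgfra was 0.558, 0.859 and 0.297 in IWAT 1 to 3 and 0.0371, 0.107 and 0.150 in EWAT 1 to 3, with RWAT 2, at 0.107, inside the range of EWAT. Icam1 per Pdgfra was 0.0938, 0.0945 and 0.197 in IWAT 1 to 3 and 0.420, 0.346 and 0.501 in EWAT 1 to 3, without overlap and in the opposite direction, but its ranges of 0.164 to 0.583 in BAT and 0.139 to 0.330 in RWAT overlapped IWAT. Dcn per Pdgfra was 5.84, 5.72 and 3.31 in IWAT 1 to 3 and 1.07, 3.27 and 2.33 in EWAT 1 to 3, without overlap, though IWAT 3 and EWAT 2 lay close together, and its ranges of 1.52 to 4.33 in BAT and 1.87 to 3.87 in RWAT overlapped both. These ratios are given as a description, with no test.

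**Figure D3:**
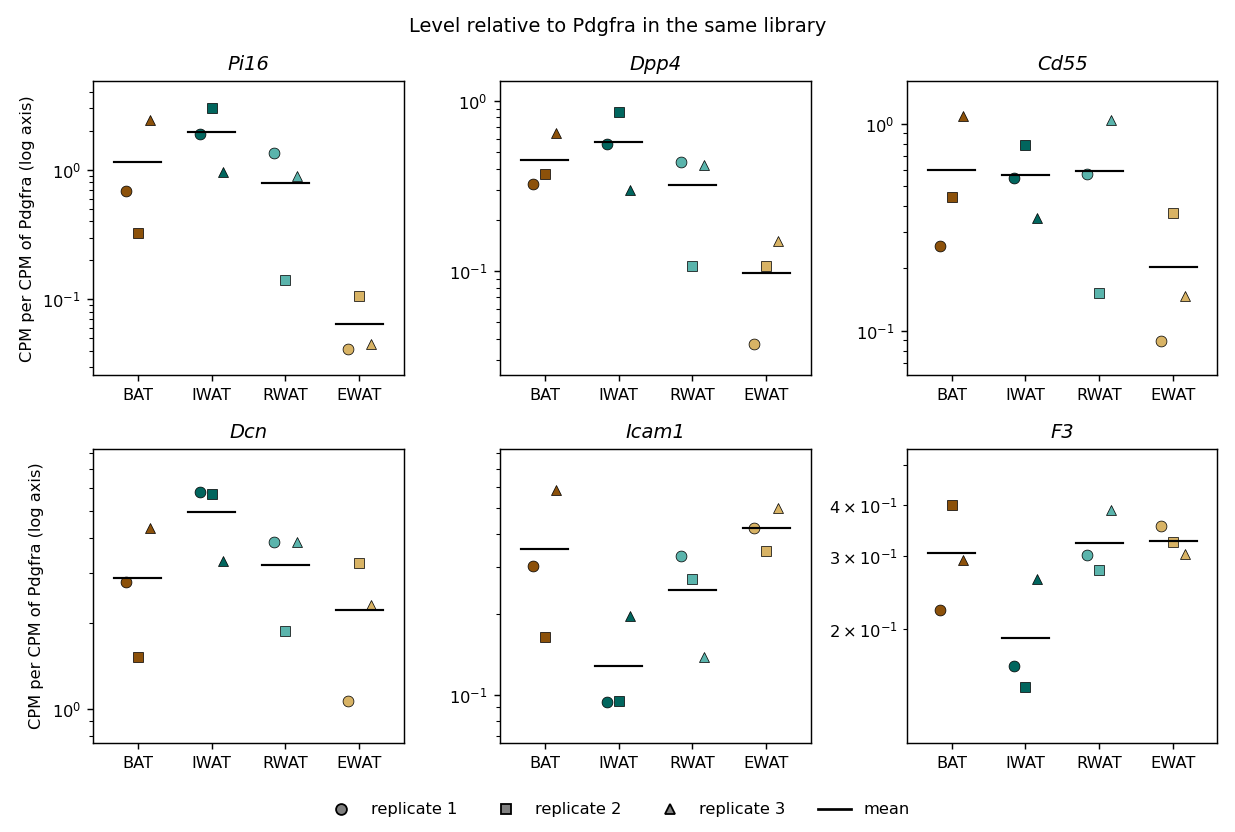
CPM of 6 genes divided by the CPM of Pdgfra in the same library (log axis), by depot; symbols give the replicate number and bars the mean of 3 libraries. Pi16 per Pdgfra is 0.0415 to 0.107 in EWAT and 0.142 to 3.02 in the other depots, whereas Icam1 per Pdgfra is higher in all 3 EWAT libraries than in all 3 IWAT libraries.

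BAT was compared with the mean of the 3 white depots, where 0 of the 10 genes were called by edgeR, against 0.0528 percent of all genes in either direction and 0.037 percent called higher. At an unadjusted p below 0.05 there were 5 of the 10, against 4.66 percent of all genes. DESeq2 called 1 of the 10, against 0.95 percent, and limma-voom called 0, against 0.0211 percent. All 10 log2 fold changes were positive, with a median of 0.70 against 0.01 over all genes, and Ly6a had the highest, at 1.66 ± 0.27 (adjusted p = 0.0900). Without BAT 2 and BAT 3, the libraries with little Ucp1, Ly6a was called at 2.08 (adjusted p = 0.0206), whereas the value of Cd55 was -0.38 and that of F3 was -0.02. BAT 1 is then the lone library of its depot and is assumed to vary like the others. Leaving out BAT 2 alone also gave the Ly6a call, at 1.92 (adjusted p = 0.00786), whereas leaving out BAT 3 alone gave 1.61 (adjusted p = 0.215) and leaving out BAT 1 alone gave 1.40 (adjusted p = 0.533).

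Markers of other cell types moved with the same comparison of BAT. All 11 tested T and natural killer cell markers had positive log2 fold changes, 10 of them at an unadjusted p below 0.05, with a median of 1.67. Their summed level was 168, 14.0 and 51.4 CPM in BAT 1 to 3, against 14.3 to 33.7 CPM in IWAT, 12.9 to 16.8 CPM in RWAT and 17.8 to 23.7 CPM in EWAT. BAT 1, where Ly6a was highest, thus also had the highest sum of these markers. T cells also carry SCA-1, the product of Ly6a. All 12 endothelial markers had positive log2 fold changes, 2 of them at an unadjusted p below 0.05, with a median of 0.57. All 12 mesothelial markers had negative ones, 8 at an unadjusted p below 0.05, with a median of -2.68. None of these 3 lists had a marker called by edgeR, and their part in the BAT values was not tested.

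Against single depots, BAT differed from EWAT in 1 of the 10 genes, Ly6a, where 0.0845 percent of all genes were called, 0.0634 percent higher and 0.0211 percent lower. BAT libraries were all above those of EWAT for 6 of the 10 genes, against 5.49 percent of all genes. In BAT over IWAT 0 were called, against 0.0264 percent of all genes and 0.0106 percent called higher. Of the 10, 3 had an unadjusted p below 0.05 in BAT over IWAT, against 12.4 percent of all genes. DESeq2 called 0 of the 10 there, against 1.69 percent, and limma-voom 0, against 0 percent. In BAT over RWAT 0 were called, against 0.0158 percent, and 1 had an unadjusted p below 0.05, against 4.36 percent. DESeq2 called 0 of the 10 in BAT over RWAT, against 0.238 percent, and limma-voom 0, against 0 percent. BAT libraries were all above those of IWAT for Icam1, 1 of the 10, against 8.37 percent of all genes, and all above those of RWAT for Ly6a, 1 of the 10, against 4.15 percent. The Ly6a call in BAT over EWAT was lost without any EWAT library, without BAT 1, without BAT 3 and without RWAT 3, and also in a fit of BAT and EWAT alone.

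The visceral depots RWAT and EWAT did not differ by the test in any of the 10 genes, where 0.00528 percent of all genes, a single gene, were called. At an unadjusted p below 0.05 there were 6 of the 10, against 4.52 percent of all genes. DESeq2 called 3 of the 10, against 0.686 percent, and limma-voom called 0 of the 10 and 0 percent of all genes. The log2 fold changes were 3.98 ± 0.87 for Pi16 (adjusted p = 0.475), 2.16 ± 0.57 for Dpp4 (adjusted p = 0.530) and 1.53 ± 0.36 for Ly6a (adjusted p = 0.475). RWAT libraries were all above those of EWAT for 5 of the 10 genes, against 3.97 percent of all genes, and EWAT libraries were below those of all other depots for the same 5, against 1.27 percent of all genes. In IWAT over RWAT 0 of the 10 genes and 0 percent of all genes were called, where 4 of the 10 had an unadjusted p below 0.05, against 19.8 percent of all genes. DESeq2 called 1 of the 10 there, against 6.12 percent, a share near that background, and limma-voom called 0 of the 10 and 0 percent. IWAT libraries were all above those of RWAT for Dcn and Pdgfra, 2 of the 10, against 15.2 percent of all genes. The values there were 1.97 ± 0.79 for Pi16 (adjusted p = 0.210) and 1.22 ± 0.42 for Dcn (adjusted p = 0.180).

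Ordered by mean CPM, 6 of the 10 genes ran from IWAT through BAT and RWAT down to EWAT. Ly6a differed from these in having BAT before IWAT. Icam1 had BAT first and IWAT last, F3 ran from BAT through RWAT and IWAT to EWAT, and Clec11a from EWAT through RWAT and BAT to IWAT. The Clec11a means of EWAT, RWAT and BAT were nearly equal, at 5.12, 5.11 and 5.10 CPM, so their order carries no weight. No neighbouring depots in the order of the 6 (IWAT and BAT, BAT and RWAT, RWAT and EWAT) differed by the test in any of the 10 genes. In the test of any difference among the 4 depots, Ly6a alone was called (adjusted p = 0.0483), against 0.211 percent of all genes, and Pi16 and Dpp4 had adjusted p-values of 0.0637 and 0.0662. That call was lost in 15 of 28 alternatives, among them the replicate block, with the highest adjusted p of 0.140, and the removal of any single library other than BAT 2 or RWAT 2. Of the 10 genes, 7 had an unadjusted p below 0.05 in that test, against 19.6 percent of all genes. IWAT libraries all below those of RWAT and EWAT were seen for 0 of the 10 and for 7.85 percent of all genes. IWAT libraries all below those of RWAT were seen for 0 of the 10 and 11 percent of all genes, and RWAT libraries all below those of EWAT for 0 of the 10 and 3.78 percent. For BAT libraries all below, again 0 of the 10, the shares of all genes were 7.91 percent against IWAT, 4.36 percent against RWAT and 0.195 percent against the 3 white depots together.

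Other genes of the progenitor state, from a list of 14, were higher in IWAT for 6 and lower for 0 in IWAT over the mean of RWAT and EWAT. The median of the 14 was 1.62, against 0.02 over all genes. Ly6c1, which encodes a further GPI-anchored surface protein and is also carried by endothelium and monocytes, averaged 108 ± 43.5 CPM in BAT, 124 ± 43.6 CPM in IWAT, 59.1 ± 21.002 CPM in RWAT and 16.2 ± 5.29 CPM in EWAT (SD, n = 3 each), with a log2 fold change of 2.00 ± 0.32 (adjusted p = 0.0161). Pcolce2, an enhancer of procollagen processing, averaged 81.2 ± 30.3 CPM in IWAT, 18.0 ± 5.94 CPM in RWAT and 11.2 ± 5.13 CPM in EWAT, with a log2 fold change of 2.52 ± 0.42 (adjusted p = 0.0161). Akr1c18, an aldo-keto reductase that inactivates progesterone, and Dact2, a regulator of WNT and TGF-beta signalling, were higher in IWAT as well, with adjusted p-values of 0.0169 for Akr1c18 and 0.0205 for Dact2. Akr1c18 averaged 14.6 ± 9.32 CPM in IWAT, 3.44 ± 2.55 CPM in RWAT and 0.0952 ± 0.165 CPM in EWAT, and Dact2 averaged 32.03 ± 23.2 CPM in IWAT, 4.61 ± 4.41 CPM in RWAT and 0.494 ± 0.314 CPM in EWAT.

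Other genes of the committed preadipocyte state, from a list of 16, were higher in IWAT for 3 and lower for 0, with a median of 0.83. The 3 were Apod, a lipocalin that carries small lipids, Cebpa, a transcription factor of adipocyte differentiation, and Zfp423, a zinc-finger factor of preadipocyte commitment. Apod averaged 88.4 ± 34.0 CPM in IWAT, 20.5 ± 16.6 CPM in RWAT and 1.22 ± 0.554 CPM in EWAT, with a log2 fold change of 4.15 ± 0.73 (adjusted p = 0.0174). Cebpa had a log2 fold change of 1.49 ± 0.33 (adjusted p = 0.0263) and Zfp423 of 1.47 ± 0.34 (adjusted p = 0.0292). Adam12, a membrane metalloprotease, had -0.98 ± 0.33, which did not pass the test (adjusted p = 0.0726). Cebpa, Pparg, Lpl and Fabp4 of this list are also expressed by mature adipocytes, whose markers were higher in IWAT.

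Other genes of the CD142+ state, from a list of 10, were higher in IWAT for 4 and lower for 0, with a median of 0.06. The 4 were Meox2, a homeobox factor, at 0.84 ± 0.21 (adjusted p = 0.0336), Gdf10, a ligand of the TGF-beta family, at 2.08 ± 0.51 (adjusted p = 0.0335), Cygb, the globin cytoglobin, at 0.92 ± 0.24 (adjusted p = 0.0374), and Fmo2, a monooxygenase, at 2.17 ± 0.62 (adjusted p = 0.0468). Stromal genes in general, from a list of 16, were higher for 2, Fbln1 and Gsn, and lower for 1, Mfap4, with a median of 0.02. Fbln1, the matrix glycoprotein fibulin 1, had a log2 fold change of 1.42 ± 0.33 (adjusted p = 0.0303), and Gsn, the actin-severing gelsolin, had 2.45 ± 0.59 (adjusted p = 0.0317). Mfap4, a microfibril-associated glycoprotein, had -1.64 ± 0.47 (adjusted p = 0.0470), and Pdgfrl had -1.34 ± 0.43 (adjusted p = 0.0631). All of these lists share the libraries IWAT 1 and IWAT 2, without either of which at most 2 genes of the whole table were called.

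**Figure D4:**
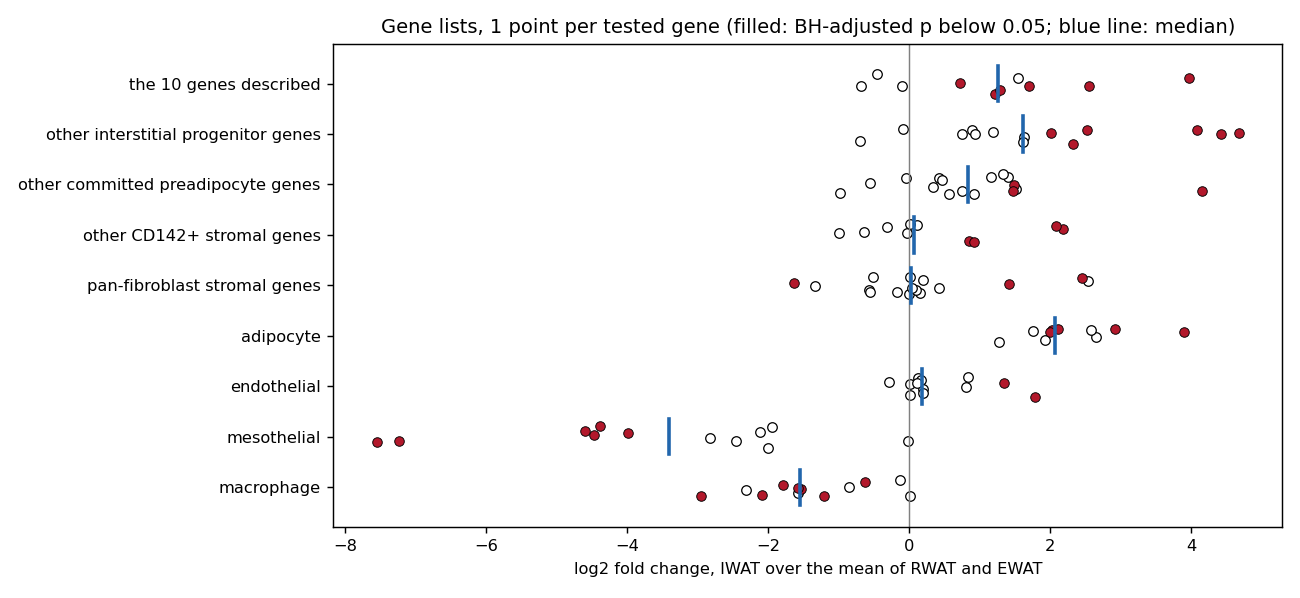
Log2 fold changes of IWAT over the mean of RWAT and EWAT (x axis) for the 10 genes described and 8 gene lists, with 1 point per tested gene, filled where the adjusted p is below 0.05, and a line at each list's median. The medians are 1.25 for the 10 genes, 1.62 for other progenitor genes, 0.02 for stromal genes in general, 2.06 for adipocyte, -1.55 for macrophage and -3.41 for mesothelial markers.

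Levels were compared between genes on the TPM scale, which corrects for length, within a library. Ly6a and Dcn held ranks 1 and 2 of the 10 genes, in either order, in every library, and Clec11a was the lowest of the 10 in all 12 libraries. Ly6a had 498, 347 and 452 TPM in BAT 1 to 3 and 88.5, 38.1 and 78.9 TPM in EWAT 1 to 3, and Dcn had 485, 955 and 347 TPM in IWAT 1 to 3 and 100.2, 98.2 and 108 TPM in EWAT 1 to 3. Pi16 ranked between 3 and 9 of the 10, with 133, 417 and 85.5 TPM in IWAT 1 to 3 and 2.85, 2.67 and 1.94 TPM in EWAT 1 to 3. Pi16 passed Pdgfra, at 42.5, 70.2 and 42.6 TPM, in each IWAT library, and in EWAT it lay below Pdgfra, at 39.4, 13.9 and 19.6 TPM. The 7SL RNA genes Rn7s1 and Rn7s2 took from 8.41 percent of TPM in IWAT 2 to 46.9 percent in EWAT 2, which lowers the TPM of every other gene in a library, so depot levels and the tests given here use CPM. The likeness of patterns below was ranked first on TPM, which carries this shared difference between libraries, and then on CPM.

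Across the 12 libraries the progenitor and shared stromal genes correlated positively with Pi16, and Icam1 and Clec11a negatively and more weakly. On the log2(CPM + 1) scale Pearson's r was 0.95 between Dpp4 and Pi16, 0.92 between Dcn and Pi16 and 0.91 between Cd55 and Pi16. It was 0.73 between Pdgfra and Pi16, -0.33 between Icam1 and Pi16, -0.42 between Clec11a and Pi16 and -0.51 between Dcn and Icam1. On the log2(TPM + 1) scale the values with Pi16 were -0.20 for Icam1 and -0.26 for Clec11a. These values describe 12 libraries that share 4 depots, so depot means enter every coefficient. Over log2(TPM + 1) and 12443 candidate genes, the genes most alike in pattern to Pi16 were Cadm3 (r = 0.98), Stxbp6 (0.97) and Pde7b (0.97). For Dpp4 they were Efhd1 (0.96), Ly6c1 (0.95) and Tmem100 (0.95), and for Pdgfra they were Pcdhgc3, Rnf24 and St3gal2 (0.96 each). Icam1 was most like Rnf19b, Itga4 and Pim1 (0.92, 0.92 and 0.91), and Clec11a was most like Esco2, Ankle1 and Zgrf1 (0.89, 0.88 and 0.87). On the log2(CPM + 1) scale most of these names changed. Pi16 was then most like Cadm3, Ces2g and Radil (0.99, 0.98 and 0.98), and Dpp4 most like Efhd1, Islr2 and Radil (0.98, 0.97 and 0.97). Icam1 was most like Fcgr4, an Fc receptor of myeloid cells, Il2rg and Rnf19b (0.91, 0.91 and 0.90). Clec11a was most like Ankle1, Rsg1 and Lrrc18 (0.84, 0.83 and 0.81), and Pdgfra most like Adamtsl1, Mmp2 and Pcdhgc3 (0.91, 0.90 and 0.90).

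Promoter windows were matched for 8 of the 10 genes in the RefSeq table. They were searched on both strands. The motifs were the TATA box motif TATAAA, the CCAAT box, the GC box with the letters GGGCGG, the AP-1 motif with the letters TGACTCA, the TEAD motif with the letters GGAATG, an NF-kappaB motif, and the core of the EBF motif, with the letters CCCNNGGG. The EBF core was in the windows of Dpp4, 114 bases before the start site, and of Cd55, 105 bases before it, so in 2 of the 8 and in 13.7 percent of 32851 promoters. The TEAD motif was in the Dpp4 window alone, against 14.7 percent of all promoters, and its match shares bases with the EBF core there. The AP-1 motif was in the F3 window alone, against 5.2 percent of all promoters. The GC box was in 4 of the 8 (Cd55, Icam1, F3 and Clec11a), against 35.7 percent, and the TATA box motif was in 3 of the 8, against 13.6 percent. Counted from the RefSeq start site, the TATA matches were at position -227 in Dpp4, 14 in Icam1 and 44 in F3, so 2 lay after that start site. GENCODE M21 starts Icam1 further downstream, at 21015985, near the end of its window, and the Icam1 match lies before that start. CCAAT was in 2 of the 8 (Pi16 and Clec11a), against 37.4 percent, and the exact NF-kappaB letters were in 0 of the 8, against 0.155 percent. Other forms of the NF-kappaB motif were not searched, so their presence in these windows was not tested. A match of these letters is a description of the window and does not show that a factor binds there.

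The genes lie, on GRCm38 with GENCODE M21, at chr17:29317680-29330593 on the plus strand for Pi16, chr2:62330073-62412231 on the minus strand for Dpp4 and chr1:130439027-130462744 on the minus strand for Cd55. Cd34 lies at chr1:194938819-194961279 on the plus strand, and Pdgfra at chr5:75152292-75198215 on the plus strand. Icam1 lies at chr9:21015985-21028817, F3 at chr3:121723537-121735048 and Dcn at chr10:97479609-97518143, all on the plus strand. Ly6a lies at chr15:74994877-74998031 and Clec11a at chr7:44302687-44306902, both on the minus strand. Genes annotated on the opposite strand overlap 6 of the 10, and those with a value had at most 101 expected counts in any library, for Gm16897 at Cd34. Whether counting used the strand is not given in the sources used here, so reads of a gene and its antisense partner cannot be told apart. RSEM's posterior SD of the count, which measures ambiguity between genes, was at most 1.74 percent of the count, for Pi16.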

How the data were processed

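Bulk RNA sequencing of 12 libraries was analysed. Per the labels' protocols, ribosomal RNA was removed and reads were sequenced single-end. Per the submitters' processing notes, Trimmomatic 0.36, RSEM 1.3.0, the genome build GRCm38.p4 and DESeq2 1.10.1 were used, while aligner, annotation release and strand setting are not given in the sources used here. Tables as deposited, per the file headers, hold RSEM expected counts per gene, which are estimated counts without normalization between libraries. They also hold the deposited TPM, scaled by the authors to effective length and library, and effective lengths and posterior SDs of the counts in other columns of the same deposited tables. Of 47729 IDs, 47224 were in GENCODE M21.

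Expected counts were rounded to whole numbers, passed through edgeR 4.0.16's filterByExpr with 10 as its minimum count, and scaled by TMM. Depots were tested two-sided by quasi-likelihood F (edgeR) in 1 model with a coefficient per depot, with Benjamini-Hochberg adjustment over 18942 genes and 0.05 as the threshold. Variation between libraries (common BCV) was 0.385. The fit was tested on simulated data. CPM are scaled by TMM; R was 4.3.3, limma 3.58.1 and DESeq2 1.42.0. Library totals ranged from 12933516 to 21106554 counts. Reads carried no stated molecular identifiers. Deviations of same-numbered libraries from their depot means correlated at 0.19, 0.51 and 0.27 between BAT and RWAT. In the other 5 pairs of depots the correlations were not all over 0.1. With 3 libraries per depot this does not show whether the replicate numbers pair any libraries.

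The 10 genes and the gene lists were chosen with earlier results of these data known. All 10 genes are named, with up to 4 genes per further list by smallest p in the test of any difference, and up to 3 genes most alike in pattern to each of 5 members by Pearson's r over genes with a mean of at least 1 TPM. Alternatives were other size factors, filters, tests, offsets and left-out libraries.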

Additional observations from a re-analysis of the deposited data

How the results depend on the processing

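Calls were recomputed under 29 alternatives, 12 of which left out 1 library each. Leaving out EWAT 1 with BAT 2, RWAT 1 with RWAT 3 or BAT 2 with BAT 3, the adipocyte covariate, TPM rescaled over protein-coding genes and likeness on the CPM scale were chosen after seeing the data. Of the values of single genes under these alternatives, 1531 kept their direction and side of the threshold, 111 were no longer called, 38 became called and 40 changed sign. The cause was not tested.

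Shares of all tested genes that were called stand in parentheses here. In IWAT over the mean of RWAT and EWAT, 6 genes were called (11.1 percent). Counts were 3 by limma on log2(TPM + 1) (6.61 percent) or log2(TPM + 0.1) (5.86 percent), and 0 with the adipocyte covariate (0 percent). In IWAT over EWAT 7 were called (9.03 percent), against 0 with that covariate (0 percent). In the test of any difference 1 gene was called (0.211 percent), against 5 without a filter (1.7 percent) and 7 by DESeq2 (12.8 percent). Counts were 4 and 2 by limma on log2(TPM + 1) and log2(TPM + 0.1) (0.529 and 0.273 percent). They were 3 on protein-coding TPM (0.754 percent), 0 without EWAT 1 and BAT 2 (0.376 percent) and 0 with the covariate (0.0211 percent). In BAT over EWAT 1 was called (0.0845 percent), against 3 without a filter (0.217 percent) and 5 by DESeq2 (2.52 percent). Counts were 0 on log2(TPM + 1) (0.0174 percent), on log2(TPM + 0.1) (0.0291 percent) and with only the groups compared (0.0679 percent). They were also 0 without EWAT 1 and BAT 2 (0.0206 percent) or with the covariate (0.0475 percent). In BAT over the white depots 0 were called (0.0528 percent). The count was 1 without a filter (0.245 percent), by DESeq2 (0.95 percent) or without EWAT 1 and BAT 2 (0.921 percent). DESeq2 called 3 in RWAT over EWAT (0.686 percent) and 1 in IWAT over RWAT (6.12 percent), where edgeR called 0 (0.00528 and 0 percent).

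With each library left out in turn, the counts ranged from 0 to 3 for any difference, 0 to 1 for BAT over the white depots, 0 to 6 for IWAT over the mean of RWAT and EWAT, 0 to 2 for BAT over EWAT and 0 to 7 for IWAT over EWAT. They were 0 to 0 for RWAT over EWAT, BAT over IWAT, BAT over RWAT and IWAT over RWAT. In the same fits the share of all genes called ranged from 0.0358 to 2.71 percent for any difference. It was 0.00511 to 1.14 percent for BAT over the white depots and 0 to 13.3 percent for IWAT over the mean of RWAT and EWAT. For BAT over EWAT it was 0.00512 to 0.914 percent, and for IWAT over EWAT 0.0826 to 12.2 percent.

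Only between BAT and RWAT did the deviations of same-numbered libraries from their depot means all correlate over 0.1. With 3 libraries per depot this does not show that the replicate numbers pair the libraries. With the replicate block, the counts were 0 for any difference and for BAT over EWAT, 4 in IWAT over the mean of RWAT and EWAT, 6 in IWAT over EWAT and 0 in BAT over RWAT. Over all genes the block gave 843 calls in IWAT over the mean of RWAT and EWAT and 639 in IWAT over EWAT, against 2102 and 1710 without it, and DESeq2 gave 3970 and 3780.

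The 40 sign changes had these log2 fold changes. For Dcn in BAT over the white depots the values were -0.0308 with upper-quartile factors, -0.14 on log2(TPM + 1), -0.14 on log2(TPM + 0.1), -0.000963 with the adipocyte covariate, and -0.23 to 0.24 with single libraries left out. There, Clec11a was -0.0356 without RWAT 1 and RWAT 3, and without BAT 2 and BAT 3 Cd55 was -0.38 and F3 was -0.0168. For F3 in IWAT over the mean of RWAT and EWAT they were 0.00537 on log2(TPM + 1), 0.00775 on log2(TPM + 0.1), 0.00568 without EWAT 1 and BAT 2, 0.40 with the covariate, and -0.25 to 0.00507 with single libraries left out. F3 in IWAT over EWAT was -0.0776 to 0.30 with single libraries left out. Clec11a in RWAT over EWAT was -0.00435 without a filter, -0.00458 with the replicate block, -0.19 without EWAT 1 and BAT 2, -6.69e-05 without BAT 2 and BAT 3, and -0.39 to 0.38 with single libraries left out. Clec11a in BAT over EWAT was 0.00521 with RLE factors, 0.00201 without a filter, 0.000377 with the stricter filter, 0.00644 by DESeq2, 0.0863 by limma-voom, 0.0307 on log2(TPM + 1), 0.0337 on log2(TPM + 0.1), 0.0499 with the replicate block, 0.12 on protein-coding TPM, and -0.20 to 0.38 with single libraries left out. Icam1 in BAT over EWAT was -0.0619 to 0.60 with single libraries left out.

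The floor of 3 counts was 0.134 to 0.227 CPM per library, below every value of the 10 genes.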

Other observations

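In IWAT over the mean of RWAT and EWAT, 0 of 11 tested T and natural killer cell markers and 0 of 8 B cell markers were called by edgeR, with 0 of either list at an unadjusted p below 0.05. Of the other lists, 1 of 7 tested brown adipocyte markers was higher in IWAT, 1 of 6 lymphatic endothelial markers was higher and 1 lower, 2 of 10 mural cell markers were higher and 1 lower, and 1 of 10 skeletal muscle markers was lower.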
